A study of Mus musculus with 2 samples.

Results

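The nuclear genes of the mitochondrial respiratory chain and ATP synthase were compared between the heads of newborn mice carrying opposite uniparental duplications. A probe set, the group of probes that reads a transcript on these Affymetrix arrays, was taken as a member where its single gene symbol named a nuclear subunit of complexes I to V, by the prefixes Ndufa, Ndufb, Ndufc, Ndufs, Ndufv, Uqcr and Atp5, the names Sdha to Sdhd, and the Cox4 to Cox8 families. The rule took in 179 of 45101 probe sets and 90 of 18193 genes, among them 8 complex I assembly factors whose symbols share the Ndufa prefix. The MatDp(dist2) head came from offspring of T(2:9)11H translocation carriers with both copies of distal Chr 2 from the mother and both copies of distal Chr 9 from the father. The PatDp(dist2) head came from the same cross and had the reverse, with distal Chr 2 paternal and distal Chr 9 maternal. Both were whole heads of newborns, with 1 array for each genotype, and a head without a duplication was not analysed here. The number of animals behind each array, their sex and their litter are not stated by the labels, nor is the position of the breakpoint on either chromosome.

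Complexes I and II feed electrons from NADH and succinate into ubiquinone, complex III passes them to cytochrome c, and complex IV hands them to oxygen. Complexes I, III and IV pump protons while doing so, and complex V, the ATP synthase, lets the protons flow back to make ATP. Most subunits are encoded in the nucleus, and a few catalytic ones in mitochondrial DNA. Muscle, heart and brown fat are rich in mitochondria, and complex IV has subunit isoforms that are made mainly in heart and skeletal muscle in place of the common forms.

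The deposited signal is a linear intensity, scaled by the authors so that each array has the same trimmed mean. Signals ran from 0.1 to 22236 in MatDp(dist2) and from 0.1 to 22894.5 in PatDp(dist2). A signal of at least 187, the median of the arrays' 50th percentiles, counts as measured, and each gene stands on its brightest probe set unless another is named. Of the 90 member genes 87 were measured, all of them on both arrays. Cox4i2, Cox7b2 and Ndufb4 lay below the floor in both heads. The log2 ratio below is of the MatDp(dist2) over the PatDp(dist2) signal, so negative values mean a higher signal in PatDp(dist2), and pairs of signals are given with MatDp(dist2) first. With 1 array per genotype no test was possible, no value has a replicate error, and the precision is limited by the number of arrays. In tissue of many cell types, fewer cells of a type and less RNA per cell cannot be told apart.

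Respiratory chain genes were higher in PatDp(dist2) with few exceptions. Of the 87 measured genes 83 had the higher signal there, against 48.0% of all 12483 measured genes, and their median log2 ratio was -0.69, a 1.62-fold difference, against 0.02 for all measured genes. At least 2-fold higher in PatDp(dist2) were 14 of the 87, or 16.1%, against 3.47% of all measured genes. At least 2-fold higher in MatDp(dist2) were 0 of the 87, against 4.43%. At a threshold of 1.5-fold, 51 of the 87 were higher in PatDp(dist2), against 10.8%. The count of 14 depended on the scaling of the arrays, with 36 after median centring, 7 after quantile normalization and 8 after a loess fit on brightness, while the count of genes with the higher signal in PatDp(dist2) was 83 to 85 under these 3 scalings. Median centring also moved the median of all measured genes, to -0.19.

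The complexes differed in the size of the difference, with I, II and III above IV and V. Complex II had a median log2 ratio of -0.87 over 4 genes, complex III of -0.86 over 8 and complex I of -0.81 over 35. Complex IV had a median of -0.45 over 15 measured genes and complex V of -0.44 over 17. The median of each of complexes I, II and III lay below those of both IV and V in 10 of 10 settings, the reported one and 9 alternatives of scaling, floor, offset, probe set choice and chromosome. These settings reuse the same 2 arrays and are not independent. Median centring shifts nearly all members alike, and changes of floor and offset move bright genes little, so such settings could hardly change the order. The widest range within a complex was that of complex IV, from -2.22 for Cox7a1 to 0.51 for Cox8c.

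**Figure D1:**
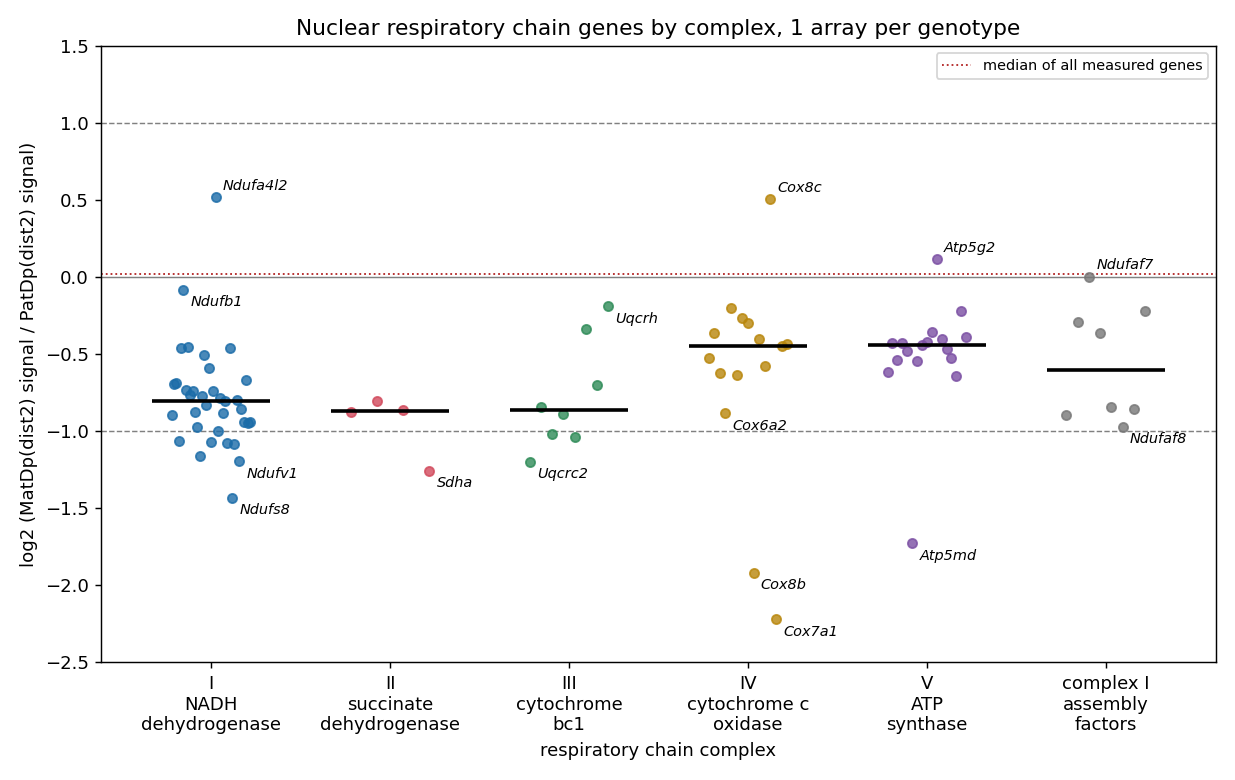
The log2 ratio of the MatDp(dist2) over the PatDp(dist2) signal is plotted for each of the 87 measured genes, in columns by complex, with a black bar at each column's median, dashed lines at 2-fold and a dotted line at the median of all measured genes. Complexes I to III have medians between -0.87 and -0.81 and complexes IV and V between -0.45 and -0.44, and Cox7a1, Cox8b and Atp5md lie lowest.

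In complex I, the entry point for electrons from NADH, the core subunits that bind the flavin and the iron-sulphur clusters had a larger median difference than the accessory ones, with single genes that overlap. All 6 core genes on the arrays had the higher signal there, 4 past 2-fold, and their median log2 ratio was -1.07. Ndufs8, which carries iron-sulphur clusters near the ubiquinone site, read 4387 in MatDp(dist2) and 11844 in PatDp(dist2), a 2.70-fold difference. Ndufv1, which holds the flavin that accepts electrons from NADH, had 3531 and 8095, a 2.29-fold difference. Ndufs3, a subunit of the arm that reaches into the matrix, had 4080.3 and 8628, a 2.11-fold difference. In the same core set, Ndufs1, the largest iron-sulphur subunit, had 2405 and 5021, a 2.09-fold difference. The core genes under 2-fold were Ndufs7, with 3701 and 7101 (2878 and 7480.4 on a second probe set), and Ndufv2, with 6827 and 11396. All 16 core probe sets measured on both arrays had the higher signal in PatDp(dist2), with a median log2 ratio of -1.07, against -0.75 over 51 probe sets of the accessory subunits. The difference between core and accessory genes was not tested.

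The accessory subunits, which surround and stabilise the core, were also higher in PatDp(dist2), with folds that overlap those of the core. All 27 measured accessory genes had the higher signal in PatDp(dist2) under the deposited scaling and the 3 other scalings, with a median log2 ratio of -0.80. Under the deposited scaling 3 of the 27 were past 2-fold. Ndufs5, an accessory subunit of the membrane arm, had 1784 in MatDp(dist2) and 3995 in PatDp(dist2), a 2.24-fold difference. Ndufa10 had 3301 and 7004, a 2.12-fold difference, and a dimmer probe set gave 219.7 and 520.0. Ndufb3, also of the membrane arm, had 2634 and 5527, a 2.10-fold difference. Of the other 24, 23 lay between 1.996-fold (Ndufb10, 4399 and 8781) and 1.37-fold (Ndufa7, 6296 and 8622). Among these were Ndufab1, the mitochondrial acyl carrier protein, with 4819 and 9478, and Ndufs4, a subunit whose loss models Leigh syndrome in mice, with 2210.4 and 3574. At the far end lay Ndufb1, with 250.6 and 265.9, whose only probe set was close to the floor, and Ndufb4 was not measured, with 90.5 and 60.4. The accessory genes other than Ndufb1 thus formed a continuous range of 1.37-fold to 2.24-fold with no gap between the members past 2-fold and the rest.

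The genes Ndufa4 and Ndufa4l2 carry a complex I name and were counted apart from its core and accessory subunits. Ndufa4, named as a complex I subunit and since placed in complex IV, had signals of 5197 and 7166, a log2 ratio of -0.46, which lies within the range of the accessory genes. Its paralog Ndufa4l2, known as a gene induced by low oxygen and abundant in pericytes, had the higher signal in MatDp(dist2), with 1258 against 879.6, a 1.43-fold difference. The difference between the log2 ratios of Ndufa4l2 and Ndufa4 was 0.98.

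The assembly factors, which help build complex I and are not kept in it, had a median log2 ratio of -0.60, with 7 of 8 higher in PatDp(dist2) and 0 at least 2-fold apart. Ndufaf8 had the largest difference, with signals of 1411 and 2774, a 1.97-fold difference. Ndufaf6 had 306.6 and 571.4, and Ndufaf4 had 863.4 and 1567. A second probe set of Ndufaf4 gave 872.8 and 1050.2, and a second of Ndufaf8 gave 302.9 and 374.1, so the brighter probe set of each gene showed the larger difference. The smallest differences were those of Ndufaf7, a methyltransferase of the complex I core, with 590.5 and 589.6, and of Ndufaf2, with 302.3 and 351.8. The direction of Ndufaf7 turned under median centring, quantile normalization and the loess fit. These factors were dim, with a median over the 8 genes of 9.52 for the mean log2 signal, against 12.6 for the complex I genes.

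Complex II, succinate dehydrogenase, is an enzyme of the citric acid cycle as well as of the chain, and all of its subunits are nuclear. All 4 genes had the higher signal in PatDp(dist2). Sdha, the flavoprotein subunit, had signals of 3892 and 9326, a 2.40-fold difference, and its other bright probe set gave 2929 and 7333. Sdhc, a membrane anchor that binds haem, had 2981 and 5468, a 1.83-fold difference. Sdhd, the other anchor, had 3712 and 6749.9, a 1.82-fold difference, and Sdhb, the iron-sulphur subunit, had 6536 and 11426, a 1.75-fold difference. On the brightest probe sets the catalytic subunit thus lay farther from 1 than the 3 others, which were close to each other. Second probe sets spread more widely, with 2.03-fold for Sdhc (2297.7 and 4653.9) and 1.48-fold for Sdhd (1033.8 and 1533.3).

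Complex III, the cytochrome bc1 complex, had 3 of 8 genes at least 2-fold higher in PatDp(dist2) on their brightest probe sets. Uqcrc2, a core protein that faces the matrix, had signals of 5421 and 12459, a 2.30-fold difference, and a second probe set gave 1.83-fold. Uqcr10, not among the 3, had a 1.85-fold difference on its brightest probe set and 2.80-fold and 2.33-fold on dimmer ones. Uqcrq, a small subunit beside cytochrome b, had 4623 and 9512, a 2.06-fold difference, and Uqcr11, the smallest subunit, had 3744 and 7585, a 2.03-fold difference. All 8 genes were higher in PatDp(dist2) under the deposited scaling, and Uqcrh turned to 0.08 on the log2 scale after quantile normalization. Uqcrh, the acidic hinge protein near cytochrome c, had 6270.4 and 7159 on its brighter probe set, a 1.14-fold difference, and 4838 and 7698 on the other. Uqcrb, a ubiquinone-binding subunit, had 14409 and 18245 on its brighter probe set and 6522 and 10685 on the other. In both genes the dimmer probe set showed the larger difference.

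In complex IV, cytochrome c oxidase, the common subunits differed little and the muscle isoforms differed much. All 9 common genes had the higher signal in PatDp(dist2), 0 of them past 2-fold, and the median log2 ratio was -0.43. Cox4i1, the common form of the largest nuclear subunit, had signals of 10952 and 15757, a 1.44-fold difference. Cox6b1, which joins the monomers of the complex IV dimer, had 12250.0 and 18271.5, a 1.49-fold difference. Cox5b, a zinc-binding subunit that faces the matrix, had the largest difference of the common genes, with 10308 and 16035, and Cox6c had 11639 and 15703.5. Cox7c was represented by a probe set at the floor, with 188.3 and 216.1, and its ratio says little.

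The muscle isoforms Cox6a2, Cox7a1 and Cox8b had a median log2 ratio of -1.92, against -0.30 for their common counterparts Cox6a1, Cox7a2 and Cox8a. Cox7a1, the heart and muscle form of subunit 7a, which brown fat also makes, read 1394 in MatDp(dist2) and 6509.9 in PatDp(dist2), a 4.67-fold difference. Its counterpart Cox7a2 had 15067 and 18535, a 1.23-fold difference, and 6941 and 11002 on a dimmer probe set. The log2 ratio of Cox7a1 was thus lower than that of Cox7a2 by 1.92 on the brightest probe sets. Cox8b, the heart and muscle form of subunit 8, had 1825 and 6916, a 3.79-fold difference, while Cox8a had 3781 and 5831, a 1.54-fold difference, with 4024 and 5203 on a second probe set and another below the floor.

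Cox6a2, the heart and muscle form of subunit 6a, stood closer to its counterpart than the others. It had 3968 and 7331 on its brighter probe set, a 1.85-fold difference, and 893.1 and 2567 on the dimmer one, where the log2 ratio was -1.52. Cox6a1 had 12181 and 14675, a 1.20-fold difference, and 5043 and 7295 on a second probe set. Every probe set of the 3 muscle isoforms showed a larger difference than every measured probe set of its own counterpart. Each of the 2 isoforms past 2-fold, Cox7a1 and Cox8b, rested on 1 probe set. Without the muscle isoforms the median log2 ratio of the remaining 84 measured genes was -0.68. Leaving out 3 of 87 genes can move a median only a little, so no conclusion is drawn from this.

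The other complex IV isoforms include forms known from testis and lung, most of them dim. Cox8c, a form known from testis, was higher in MatDp(dist2), with 936.0 against 659.5, a 1.42-fold difference, and its other probe set gave 343.0 and 336.2. Cox6b2, a further form known from testis, had 360.5 and 464.3, and Cox7b2, the testis form of subunit 7b, lay below the floor with 46.6 and 14.5. Cox4i2, the form of subunit 4 known from lung, lay below the floor with 143.6 and 153.5. Cox7a2l, a relative of subunit 7a that helps join complexes III and IV into supercomplexes, had 4400.0 and 6001 on its brightest probe set, a 1.36-fold difference, with log2 ratios of -0.23 and -0.21 on the 2 others.

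**Figure D2:**
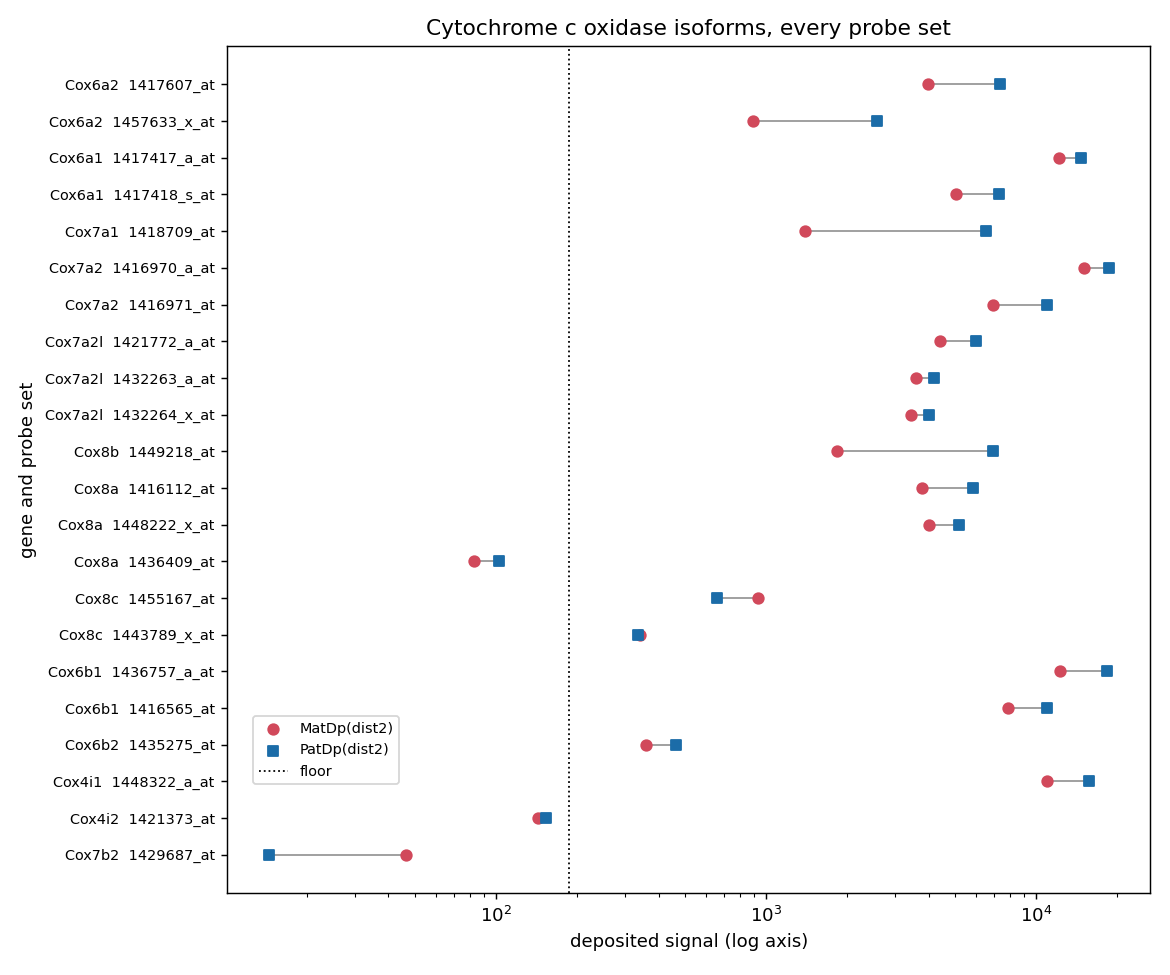
Deposited signals of every probe set of the listed complex IV isoforms are plotted on a log axis, with a circle for MatDp(dist2), a square for PatDp(dist2) and a dotted line at the floor of 187. The lines between the heads are longest among measured probe sets for Cox7a1 (1394 to 6509.9), Cox8b (1825 to 6916) and the dimmer Cox6a2 probe set (893.1 to 2567), and short for their counterparts.

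The upstream sequences of the pairs Cox7a1 with Cox7a2 and Cox8b with Cox8a are shown because each pair encodes the same subunit and differed in ratio. Cox6a2, the muscle partner of Cox6a1, had no window in the RefSeq table. Each run holds the 250 bases before the transcription start in the RefSeq table, build GRCm38.p6, 5′ to 3′ on the gene's strand. Capitals mark letters that match one of 8 motifs, searched on both strands: NRF-1 (GCGCANGCG), the ETS motif bound by GABP (CCGGAAG), YY1 (AAGATGG), the CCAAT box (CCAAT), the ERR motif (AAGGTCA), the E-box of the MyoD type (CAGCTG), MEF2 (CTAAAAATA) and the TATA box (TATAAA). Cox6a1 and Sdha are added as windows with several NRF-1 matches, NRF-1 being a factor known for activating respiratory chain genes.
Cox7a1, chr7:30183921-30184170, plus strand: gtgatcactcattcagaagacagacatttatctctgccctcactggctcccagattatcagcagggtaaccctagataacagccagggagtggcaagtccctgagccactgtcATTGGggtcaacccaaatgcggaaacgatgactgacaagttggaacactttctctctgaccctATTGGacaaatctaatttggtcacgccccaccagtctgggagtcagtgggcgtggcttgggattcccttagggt
Cox7a2, chr9:79759854-79760103, minus strand: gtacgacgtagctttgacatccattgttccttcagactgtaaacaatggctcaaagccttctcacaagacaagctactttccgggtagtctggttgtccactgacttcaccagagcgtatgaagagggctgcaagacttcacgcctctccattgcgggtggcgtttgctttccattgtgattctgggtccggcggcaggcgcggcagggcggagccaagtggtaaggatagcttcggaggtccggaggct
Cox8b, chr7:140900447-140900696, minus strand: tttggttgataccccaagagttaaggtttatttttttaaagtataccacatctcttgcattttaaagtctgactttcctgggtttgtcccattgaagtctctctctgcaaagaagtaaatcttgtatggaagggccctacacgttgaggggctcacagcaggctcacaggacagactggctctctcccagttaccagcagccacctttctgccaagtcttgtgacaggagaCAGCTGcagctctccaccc
Cox8a, chr19:7217617-7217866, minus strand: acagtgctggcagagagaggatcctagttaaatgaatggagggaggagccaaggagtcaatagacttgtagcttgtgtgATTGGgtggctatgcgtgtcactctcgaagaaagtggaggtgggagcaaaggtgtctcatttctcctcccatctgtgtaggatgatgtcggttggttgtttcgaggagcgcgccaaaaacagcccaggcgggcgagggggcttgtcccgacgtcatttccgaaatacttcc
Cox6a1, chr5:115348959-115349208, minus strand: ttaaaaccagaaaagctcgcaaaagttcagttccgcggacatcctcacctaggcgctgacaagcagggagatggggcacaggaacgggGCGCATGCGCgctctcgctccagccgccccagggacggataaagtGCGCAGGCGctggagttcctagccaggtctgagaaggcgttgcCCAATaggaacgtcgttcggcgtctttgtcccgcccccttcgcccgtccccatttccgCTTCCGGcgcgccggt
Sdha, chr13:74350241-74350490, minus strand: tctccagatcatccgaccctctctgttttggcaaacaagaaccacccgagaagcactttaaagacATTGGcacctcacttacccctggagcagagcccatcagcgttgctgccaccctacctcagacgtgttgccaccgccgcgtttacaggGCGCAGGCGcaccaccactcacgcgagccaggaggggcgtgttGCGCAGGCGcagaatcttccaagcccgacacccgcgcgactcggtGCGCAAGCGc

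The Cox8b window held 1 CpG and the Cox7a1 window 4, against 11 for Cox8a, 14 for Cox7a2 and 26 for Cox6a1. Without a Cox6a2 window the pair of Cox6a2 and Cox6a1 could not be compared. The Cox8b window had 1 E-box, and its NRF-1, ETS and CCAAT counts were 0. The Cox7a1 window had 2 CCAAT boxes and no other match, the Cox7a2 window had 0 matches of any of the 8 motifs, and the Cox8a window had 1 CCAAT box. Cox6a1 had NRF-1 matches 162, 161 and 117 bases before the start, the first pair overlapping on opposite strands, with a CCAAT box at 74 and an ETS match at 16. Sdha had 3 NRF-1 matches, at 98, 55 and 10 bases before the start, and a CCAAT box at 185. Sdha was 2.40-fold higher in PatDp(dist2) and Cox6a1 1.20-fold. A relation between NRF-1 matches and the ratio was not tested.

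Windows were found for 74 of the 90 member genes, 79 windows in all, and compared with 32807 windows of all genes. The median CpG count was 15 in member windows and 6 in all windows. NRF-1 matches were present in 17.7% of member windows and 5.16% of all windows, and among windows with 15 or more CpG in 26.8% of 41 and 14.99% of 8953. ETS matches were also present in 17.7% of member windows, against 6.91% of all windows, and in 14.6% and 15.5% of the windows with 15 or more CpG. Member and all windows had CCAAT in 41.8% and 33.8%, the ERR motif in 6.33% and 4.08%, YY1 in 1.27% and 4.48%, the E-box in 7.59% and 13.01%, MEF2 in 0 of 79 and 0.469%, and TATA in 10.1% and 12.4%. By complex, NRF-1 matches were in 5 of 34 windows of complex I, 2 of 3 of complex II, 0 of 5 of complex III, 1 of 12 of complex IV, 5 of 18 of complex V and 1 of 7 of the assembly factors. A match describes the letters only, and binding was not measured.

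In complex V the ATP synthase subunits lay close together on their brightest probe sets, apart from Atp5md. Atp5md, a small membrane subunit known for linking ATP synthases into dimers, read 3442 in MatDp(dist2) and 11413 in PatDp(dist2), a 3.32-fold difference on its only probe set. Of the 17 genes it alone was at least 2-fold apart. The other membrane genes, Atp5l, Atp5j2, Atp5mpl and Atp5k, lay between 1.34-fold and 1.38-fold on their brightest probe sets. Dimmer probe sets gave 1.56-fold and 1.77-fold for Atp5k and 1.59-fold and 1.14-fold for Atp5j2. Atp5md lay beyond all of these readings. The next after it were Atp5d, the delta subunit of the F1 head, with 9451 and 14730 and a 1.56-fold difference, and Atp5h, a stalk subunit, with 8513 and 13081 and a 1.54-fold difference. The 5 genes of the F1 head, where ATP is made, had a median log2 ratio of -0.48, and the 4 genes of the peripheral stalk had -0.49. Atp5b, the catalytic beta subunit, had 13717 and 17929, a 1.31-fold difference, the smallest of the head. The 3 genes of the c ring, the turning rotor in the membrane, encode nearly the same mature protein with different import sequences. Atp5g1 had 3241 and 4663, Atp5g2 had 4134 and 3808, and Atp5g3 had 13259 and 15446. Atp5g2 was thus the only complex V gene higher in MatDp(dist2) under the deposited scaling, by 1.09-fold, and it turned to -0.09 on the log2 scale after median centring, while Atp5g3 turned to 0.03 after the loess fit.

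Brightness moved with the difference, and was set beside it. Bright genes as a whole had a higher signal in PatDp(dist2): of 759 measured genes with a mean log2 signal of 12 or more, members included, 75.1% were higher there and 7.64% at least 2-fold. Among genes of mean log2 signal 12 to 13, the 34 members had a median log2 ratio of -0.86 against -0.20 for 482 other genes, and 8 of the 34 were at least 2-fold higher in PatDp(dist2), against 8.30% of the others. From 13 up, the 29 members had a median of -0.52 against -0.13 for 214 other genes, with 1 of the 29 and 4.21% of the others past 2-fold. All 63 members in these bins had the higher signal in PatDp(dist2). From 11 to 12, 11 members had a median of -0.89 against -0.14 for 1246 other genes.

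The same order of the complexes was present at matched brightness. Among members with a mean log2 signal of 13 or more, the medians were -0.73 for 7 complex I genes and -0.70 for 3 complex III genes, against -0.43 for 7 complex IV genes and -0.44 for 11 complex V genes. Between 12 and 13 they were -0.86 for 22 genes of complex I and -0.93 for 4 of complex III, against -0.62 for 3 of complex IV and -0.47 for 3 of complex V. Over the 87 members, Spearman's rho of the log2 ratio with the mean log2 signal was 0.15, as a description across genes that share the same 2 arrays. Whether signals near the top of the scanner range understate a difference was not tested.

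**Figure D3:**
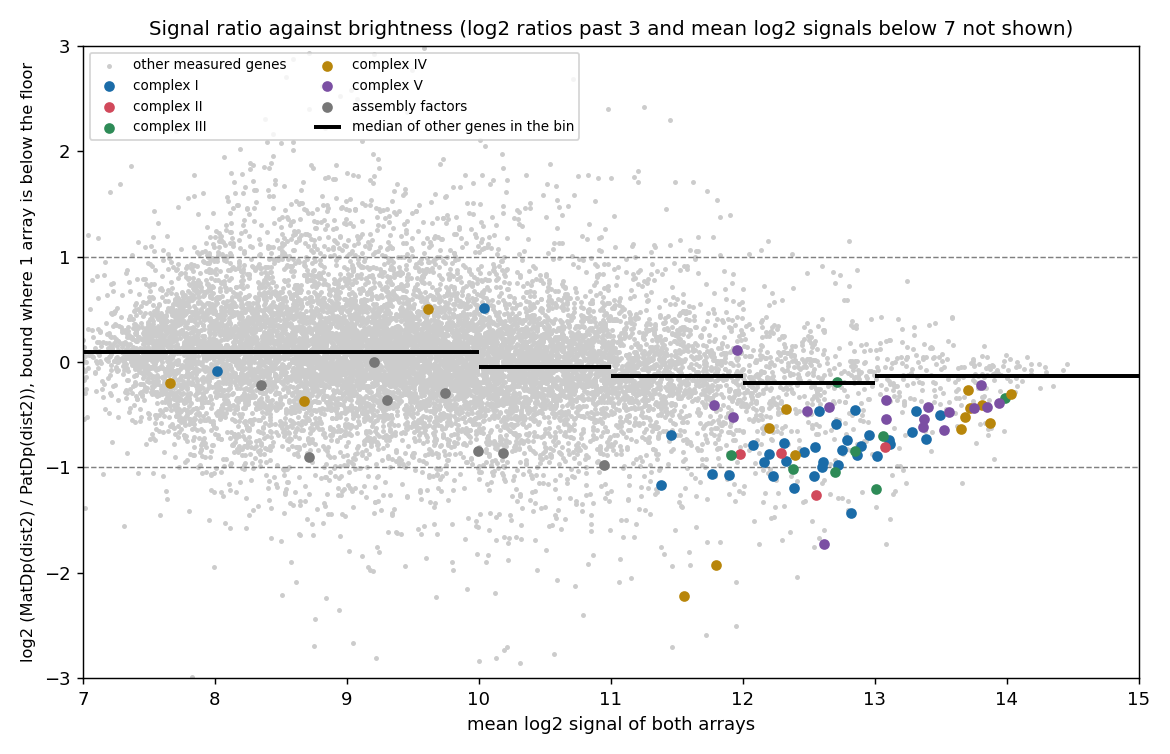
The log2 ratio of each measured gene is plotted against its mean log2 signal, in grey for other genes and in colour for the 87 members by complex, with black bars at the median of the other genes in each brightness bin. Members from 12 to 13 have a median of -0.86 where other genes have -0.20, and members from 13 on have -0.52 where other genes have -0.13.

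Several probe sets of a gene gave repeat readings from the same 2 arrays. Of the 179 probe sets 156 were measured on both arrays, 2 on 1 array and 21 on neither. Of the 156, 150 had the higher signal in PatDp(dist2), 27 were at least 2-fold higher there and 0 were at least 2-fold higher in MatDp(dist2). Counted by gene, these shares were 48.0%, 3.47% and 4.43% of all measured genes, and shares over all probe sets are not given here. In 46 genes with 2 or more probe sets measured on both arrays, all pointed the same way in 45. The SD within a gene, pooled over 115 probe sets, was 0.24 on the log2 scale. The exception was Atp5c1, the gamma shaft of the F1 head, with 8785 and 12792 on 1 probe set and 400.5 and 391.0 on a dim one. The widest spread, 1.26, was in Ndufs8, whose dimmest measured probe set gave 336.2 and 379.1, while the 5 others had log2 ratios between -1.43 and -0.89. In 25 of the 46 genes the brightest probe set lay nearer 0 than the dimmest. Many of these genes have processed pseudogenes, and probe sets marked as reading several transcripts, those ending in _s_at or _x_at, had a median log2 ratio of -0.69 over 47 probe sets against -0.73 over 109 others.

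Members on Chr 9 had a smaller median difference than those elsewhere, and distal Chr 2 had 1 measured member. On Chr 9, of which the duplicated part is not placed, Atp5l (4867 and 6722.5), Cox5a (12518 and 16566.5), Cox7a2, Ndufaf3 (775.8 and 948.3), Sdhd and Uqcrc1 (5499 and 9853) had a median log2 ratio of -0.44. On distal Chr 2, taken as H13 and beyond, Atp5e of the F1 head had 3064 and 4054, a 1.32-fold difference, and Cox4i2 lay below the floor. The 80 measured members elsewhere had a median log2 ratio of -0.72. The Chr 9 members come from several complexes, whose medians differ. Sdhd had -0.86 where complex II had a median of -0.87, and Uqcrc1 had -0.84 where complex III had -0.86. Cox5a had -0.40 and Cox7a2 -0.30, where the common complex IV genes had -0.43. Atp5l had -0.47 where complex V had -0.44, and Ndufaf3 had -0.29 where the assembly factors had -0.60. Chromosome was not separated from complex. Parental origin of the duplicated parts was opposite in the heads. The 6 members on Chr 9 and the 1 measured on distal Chr 2 had the higher signal in PatDp(dist2), as did most members elsewhere. An effect of parental origin was not tested.

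Other genes of mitochondria were also higher in PatDp(dist2), by smaller median differences. Genes below the floor on 1 array stand at their bound in these medians, namely Ucp3 of the carriers and Sco1 and Sco2 of the assembly factors. Of 12 measured genes of cytochrome c, carriers and pores, 12 had the higher signal there, 2 of these past 2-fold, and their median log2 ratio was -0.56. Ckmt2, the muscle form of mitochondrial creatine kinase, had signals of 2450.4 and 8106, a 3.31-fold difference, while the ubiquitous form Ckmt1 had 656.5 and 657.7. Ucp1, the uncoupling protein of brown fat, was 2.34-fold higher there, and Slc25a4, the muscle ADP/ATP carrier, 1.28-fold. Cyc1, the cytochrome c1 of complex III, which the member rule does not take in, had 8197 and 14745. Of the mitochondrially encoded subunits ND5 alone was matched, with 12997 and 16196, a log2 ratio of -0.32.

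The machinery that builds mitochondria had smaller median differences than the chain, and it was dimmer. The median of the mean log2 signal was 9.83 for the assembly factors outside the rule and 10.3 for the mitochondrial ribosome. It was 11.1 for the import genes and 12.6 for the 87 members. Other genes had a median log2 ratio of 0.09 at 7 to 10, -0.04 at 10 to 11 and -0.20 at 12 to 13. These lists were not compared with the chain at matched brightness. Of 35 measured assembly factors outside the rule, 30 had the higher signal in PatDp(dist2) and 2 were past 2-fold there, and the median log2 ratio was -0.37. The 2 make 5.71% of this list. Among all measured genes 3.47% were past 2-fold and 48.0% had the higher signal in PatDp(dist2). Cox17, a copper chaperone of complex IV, was 2.78-fold higher (2892 and 8027) and Foxred1, a complex I assembly factor, 2.00-fold (208.2 and 416.6). Sdhaf2, which attaches the flavin of complex II, was higher in MatDp(dist2) by 1.25-fold and Uqcc3 by 1.14-fold. Of 74 measured genes of the mitochondrial ribosome 69 had the higher signal in PatDp(dist2), with a median of -0.41. Mrpl51 and Mrps9 were 2.11-fold and 2.06-fold higher there, and Mrpl32 and Mrpl49 were 1.30-fold and 1.21-fold higher in MatDp(dist2). The share of ribosome genes past 2-fold, 2.70%, was thus below that of all measured genes. Of 20 import genes 17 had the higher signal in PatDp(dist2), with a median of -0.34 and 0 past 2-fold, from Timm17a (1.80-fold) and Timm44 (1.58-fold) to Tomm70a and Tomm34, which were 1.16-fold and 1.26-fold higher in MatDp(dist2).

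Of the 18 regulators of mitochondrial genes 13 had the higher signal in PatDp(dist2) (16 after median centring), 3 of them past 2-fold, and the median log2 ratio was -0.16. The 3 make 16.7% of the list, against 3.47% of all measured genes. Ppara, a fatty acid receptor that drives oxidation genes, had 530.6 and 1701, a 3.21-fold difference, and Ppargc1a, the coactivator that drives mitochondrial biogenesis, had 393.6 and 1065.0, a 2.71-fold difference. Its relative Ppargc1b, named after its value was seen as the third of 3 regulators past 2-fold, had 1304 and 3089.8. Nrf1, the factor whose motif was searched above, had 556.9 and 616.2, and Esrrb was 1.18-fold higher in MatDp(dist2). The partners that form GABP, whose ETS motif was searched, went opposite ways, with Gabpa 1.32-fold higher in PatDp(dist2) (1337 and 1758.5) and Gabpb1 1.37-fold higher in MatDp(dist2). The proton pump of acid vesicles, the vacuolar ATPase, served as a comparison outside mitochondria, and its 17 genes had a median of -0.01. Of these 17, 9 were higher in PatDp(dist2) (13 after median centring, 7 after quantile normalization or the loess fit), among them Atp6v0e (1.49-fold) and Atp6v1e1 (1.31-fold), while Atp6v0e2 and Atp6v0a1 were 1.51-fold and 1.46-fold higher in MatDp(dist2).

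Markers of muscle and of fat were higher in PatDp(dist2) as well. The share of all measured genes at least 2-fold higher in PatDp(dist2) was 3.47%. All 12 skeletal muscle markers had the higher signal in PatDp(dist2), 4 of them past 2-fold, though after quantile normalization or the loess fit 11 of 12 did. Their median log2 ratio was -0.59 and their summed signals were 82866.5 and 118020.3. Mb, the oxygen store myoglobin, was 13.3-fold higher and the fast myosin Myh2 7.02-fold, while the actin Acta1 differed by 1.03-fold and the newborn myosin Myh8 by 1.22-fold. Of the markers of heart-type and slow muscle 7 of 8 were measured, all higher there (6 of 7 after quantile normalization or the loess fit), with a median of -0.49 and summed signals of 25672 and 33623. Myl3 was 3.91-fold and Myl2 2.96-fold higher there, Actc1 1.11-fold and Tnni1 1.25-fold, and Myh6, the atrial myosin of the heart, lay below the floor. All 6 brown fat markers, 4 of them at least 2-fold, had the higher signal there, with a median of -1.23, which is a bound because Otop1 lay below the floor in MatDp(dist2) (147.8 and 439.0), and summed signals of 9976 and 27997. Ppara and Ucp1 stand in this list and in another above. Among the brown fat markers Cidea was 4.12-fold and Ppara 3.21-fold higher, Dio2 1.36-fold and Elovl3 at least 1.17-fold. Of 4 fat cell markers on the arrays 3 were measured, Adipoq (3.23-fold), Fabp4 (1.89-fold) and Retn (1.69-fold), with summed signals of 14377 and 30861.8, and Lep lay below the floor.

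Markers of neurons, skin and cartilage were higher in MatDp(dist2). The share of all measured genes at least 2-fold higher in MatDp(dist2) was 4.43%. All 10 neuron markers were higher in MatDp(dist2), 8 of them past 2-fold (3 after median centring, 9 after quantile normalization or the loess fit). Their median log2 ratio was 1.18 and their summed signals were 33698 and 14930.3, and the folds ran from Tubb3 (3.68-fold) and Dcx (3.37-fold) to Stmn2 (1.79-fold) and Snap25 (1.77-fold). All 7 epidermis markers were higher there, with a median of at least 4.02 and summed signals of 45295 and 6256, Flg by at least 26.5-fold and Lor by 20.5-fold, Krt5 by 1.58-fold and Krt14 by 1.56-fold. All 6 cartilage markers were higher there, with a median of at least 0.78 and summed signals of 6951 and 3577. Col2a1 was 2.29-fold higher and Cnmd at least 2.13-fold, Acan 1.29-fold and Matn1 at least 1.03-fold. Of 4 red cell markers found, Alas2 was 1.18-fold higher in MatDp(dist2) and Slc4a1 1.88-fold in PatDp(dist2), and Hba-a1 and Hbb-bh1 lay below the floor. The part of muscle, fat, neurons or skin in the difference of the respiratory chain was not tested, and with 1 array per genotype tissue makeup and genotype cannot be told apart.

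**Figure D4:**
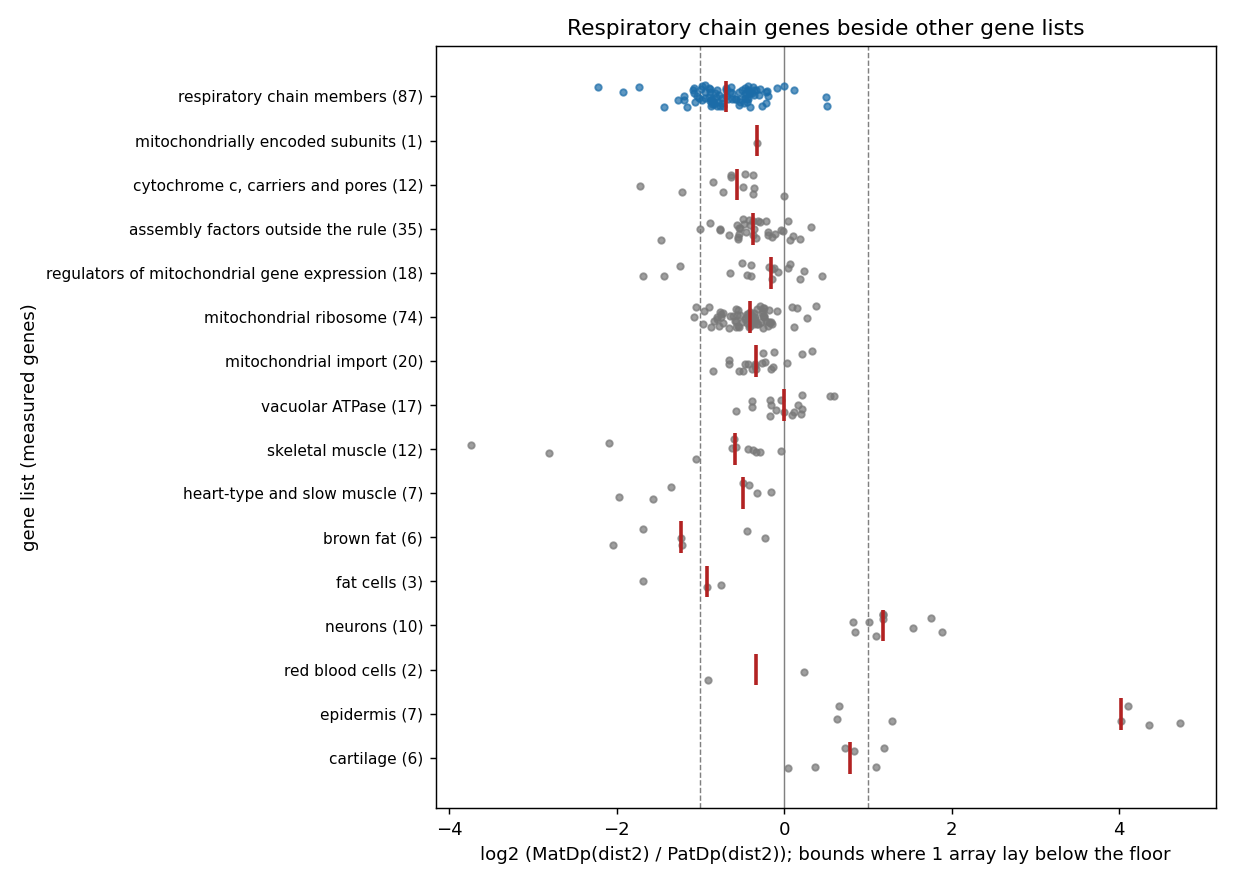
The log2 ratio of each measured gene is plotted for the 87 respiratory chain members and for each companion list, with the number of measured genes in brackets, a red bar at the median and dashed lines at 2-fold. The chain (median -0.69) lies left of 0 with the muscle, fat and other mitochondrial lists, the vacuolar ATPase lies at -0.01, and neurons (1.18), epidermis (4.02) and cartilage (0.78) lie to the right.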

How the data were processed

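RNA of newborn heads had been hybridised to Affymetrix arrays, 1 per genotype. Per the submitters' processing notes, MAS5 and GCOS were used, and the deposited values are intensity signals on a linear scale. The 2% trimmed mean was 500.002 on both arrays, and the authors' scaling was kept. Names came from the platform annotation, in which 34945 probe sets carry 1 symbol and 34741 of these were matched by gene ID to the RefSeq table of GRCm38.p6. The 10 probe sets that list a member beside other genes were left out. Each gene was represented by the probe set whose mean log2 signal was highest. A signal below the floor of 187 was replaced by the floor, which gives a bound.

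The members and all lists were chosen with earlier results of these data known. The text names, by rule, the 3 lowest and 2 highest ratios of each complex, all complex IV isoforms, members on distal Chr 2 and Chr 9, those past 2-fold or with probe sets over 2-fold apart, and the 2 farthest each way of each of 15 companion lists, of which 237 of 276 entries were found. Other genes named beside them, such as Ndufs7, Ndufv2, Ndufa4, Atp5g1, Atp5c1, Cyc1, Nrf1, Gabpa, Otop1, Ucp3, Sco1 and Sco2, the 6 printed windows and the letters of the motifs were chosen after their values were seen. Python 3.11.15 with pandas 2.3.3 and statsmodels 0.14.6 was used, and the ratio script was tested on simulated arrays. Alternatives changed the scaling, floor, offset, probe set choice, chromosomes and fold threshold.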

Additional observations from a re-analysis of the deposited data

How the results depend on the processing

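With the deposited scaling 14 member genes were at least 2-fold higher in PatDp(dist2). That count was 36 with median centring, 7 with quantile normalization, 8 with the loess fit, 51 at a 1.5-fold threshold and 3 at a 3-fold threshold, and 13 to 16 under the other alternatives of floor, offset, probe set choice and chromosomes. The share of all measured genes past the same fold was 6.12% with median centring, 3.71% with quantile normalization and 3.62% with the loess fit. It was 10.8% at the 1.5-fold threshold, 0.801% at the 3-fold threshold and 2.6% to 3.63% under the other alternatives. The median log2 ratio of the members ranged from -0.91 to -0.50 over 9 alternatives, that of complex I from -1.02 to -0.61, of complex II from -1.08 to -0.68, of complex III from -1.08 to -0.66, of complex IV from -0.66 to -0.31, of complex V from -0.65 to -0.24, and of the muscle isoforms from -2.13 to -1.77. The assembly factors ranged from -0.84 to -0.36. Medians moved by less than 0.24, the SD between probe sets of a gene, in each of these. Of 351 values of 45 named genes under alternatives, 6 had another sign, in Uqcrh, Atp5g3, Atp5g2 and Ndufaf7. No paired analysis was possible because each group has 1 array. The loess fit and quantile normalization remove part of any difference shared by bright genes by construction. Genes near the floor of 187, such as Cox7c and Ndufb1, are the least certain.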

Other observations

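Of the 10 probe sets whose annotation lists a respiratory chain gene beside other genes, 8 were measured on both arrays. Of these 8, 6 had the higher signal in PatDp(dist2), with a median log2 ratio of -0.70 and a range from -1.32 to 0.11. They are not named here because the reads of their several genes cannot be told apart.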
